A study of Mus musculus with 12 samples.

Results

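The comparison asked whether loss of Xbp1 changed the transcriptome differently at 2 stages on the way to eosinophils. It was the interaction of genotype and stage over all genes: the log2 fold change KO minus WT in GATA2-GMP minus the same fold change in GMP. All 12 of the 12 libraries of the series entered it, as 4 groups of 3 libraries, all from C57BL/6 mice. GMP WT and GMP KO were granulocyte-macrophage progenitors, marrow cells from which granulocytes and monocytes form, wild type or deficient in Xbp1, collected in Trizol right after sorting and never cultured. GATA2-GMP WT and GATA2-GMP KO were the same 2 genotypes of progenitor after transduction with GATA2, sorting and culture for 48 hours. GMP libraries were made with the TruSeq kit alone, and for GATA2-GMP the labels name a SMARTer low-input kit ahead of TruSeq, so stage, transduction, culture and kit cannot be told apart. A difference between the stages is therefore a difference between these 2 preparations, while KO and WT of 1 stage were prepared alike per the labels. Neither the kind of Xbp1 allele nor the animals behind a replicate are in the labels, so p-values measure the spread between these libraries, which may be technical.

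XBP1 is one of the transcription factors that cells switch on when unfolded proteins pile up. It becomes active when IRE1, a sensor in the membrane of the endoplasmic reticulum (ER), splices the Xbp1 mRNA, and it drives genes for protein folding, translocation into the ER, glycosylation, disposal of misfolded proteins and transport to the Golgi. Another sensor, PERK, acts through ATF4 and CHOP on amino acid supply and tRNA charging, and ATF6 acts on ER chaperones. Eosinophils fill their granules with large amounts of secreted cationic proteins, and granulocyte-macrophage progenitors make neutrophil primary granule proteins in their place.

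Cell type markers differed between the stages in the direction of the labels. CPM values are counts per unit of library size, the size corrected by the trimmed mean of M values over all 12 libraries. Sums of CPM run over the tested members of a list. Those of the 7 tested eosinophil granule genes, of 14 listed, lay between 47.7 and 608 in the 6 GMP libraries and between 55807 and 206650 in the 6 GATA2-GMP libraries. Library totals ran from 8219366 to 33640911 counts. The replicates of GMP lay closer together than those of GATA2-GMP: the median SD over genes of log2 CPM was 0.0997 in GMP WT, 0.112 in GMP KO, 0.409 in GATA2-GMP WT and 0.324 in GATA2-GMP KO. Of GATA2-GMP, WT 3 and KO 3 stood apart from their groups. The summed CPM of 45 respiratory chain subunits was 16986, 17427 and 10479 in WT 1, 2 and 3, and 12143, 12381 and 16509 in KO 1, 2 and 3. The sum of 41 proteasome subunits was 14139, 15964 and 10039 in WT and 10686, 11004 and 15378 in KO. That of the 19 tested monocyte, macrophage and dendritic cell genes was 11666, 9715 and 4920.4 in WT and 4703, 4159 and 7806 in KO. In these 3 sums WT 3 lay near KO 1 and 2, and KO 3 nearer to WT 1 and 2. Eosinophil receptors and enzymes had a like layout, with sums of 32436, 38039 and 25073 in WT and 21869, 22101 and 29831 in KO. So had neutrophil primary granule genes, with 18953, 22577 and 11914 in WT and 11339, 12255 and 18432 in KO. Eosinophil granule genes and Xbp1 followed the labels in all 6 libraries. Below, WT 3 and KO 3 with no stage named are these GATA2-GMP libraries.

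Xbp1 itself (chr11:5420662-5425896 in mm9, plus strand) was counted over the whole gene, and which of its exons are deleted is not in the labels. It stood at 131, 133 and 153 CPM in GMP WT 1, 2 and 3 and at 89.8, 55.9 and 56.8 CPM in GMP KO. In GATA2-GMP it stood at 381, 269 and 197 CPM in WT and 99.9, 122 and 128 CPM in KO. Every KO library lay below every WT library of its stage, and KO libraries kept counts at both stages. The log2 fold change was -1.04 (SE 0.24) in GMP and -1.28 (SE 0.24) in GATA2-GMP, and the difference between them was -0.24 (SE 0.34, edgeR quasi-likelihood adjusted p = 0.815). A gap in Xbp1 counts between the stages was thus not detectable with this spread.

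Of 12803 genes tested, 11 differed in genotype effect between the stages at an adjusted p under 0.05, which is 0.0859% of genes, 0.0312% higher and 0.0547% lower (edgeR quasi-likelihood test with Benjamini-Hochberg adjustment). The effect was higher in GATA2-GMP for Pdk1, Slc2a1, Ethe1 and Zcchc11, and lower for Ear1, Ear2, Sncaip, Camkk1, Rnf144b, Tusc1 and Sac3d1. KO and WT libraries did not overlap in GATA2-GMP for any of the 11 and overlapped in GMP for all but Rnf144b and Ethe1. Background shares of genes without overlap were 21.5% in GATA2-GMP and 18.8% in GMP. At an unadjusted p under 0.05 stood 1909 genes (14.9%), 763 higher (5.96%) and 1146 lower (8.95%), and 184 genes had an adjusted p between 0.05 and 0.10. All 11 kept their sign in each of 24 alternative settings, but the number of calls did not hold. It was 1 or 2 without any 1 GMP library, 0 without GATA2-GMP KO 1 (1687 at an unadjusted p under 0.05), 10 without WT 1, 127 without WT 2, 25 without KO 2, 28 without KO 3 and 1179 without WT 3 (565 higher and 614 lower, or 9.03%, 4.33% and 4.70% of genes). It was 1 with the replicate number as a block in GMP, where the numbers pair libraries, and 4187 with GATA2-GMP WT 3 and KO 3 both left out, a setting chosen after seeing the data that lowers the spread within groups by its construction. Of 56 genes named by rule and described here that did not pass, Eif2ak3 not counted, 38 passed without WT 3 and 22 without GATA2-GMP WT 2. Without GATA2-GMP KO 2 and KO 3, 7 and 8 passed, and none without any other 1 library. For each such gene the adjusted p without WT 3 follows that of the 12 libraries where it passed there, together with the difference where that moved by over 1.5 times. WT 3 lay near KO libraries in several sums above, and leaving it out gave the most calls of any 1 library. A pass there describes dependence on that library and does not count as a pass. With another library left out the edgeR adjusted p was as high as 0.2 for Hspa5 and 0.179 for Epx. DESeq2 called 794 genes, 240 higher and 554 lower (6.20%, 1.87% and 4.33%), and limma-voom with group weights 14, 4 higher and 10 lower (0.109%, 0.0312% and 0.0781%). DESeq2 called all 11 genes of the main fit, and limma-voom called only 6 of these 11. Scaling by library totals alone, which moved the median difference of all genes from -0.01 to 0.14, called 15, of which 8 were higher and 7 lower, and DESeq2 size factors in edgeR called 17, of which 4 were higher and 13 lower.

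**Figure D1:**
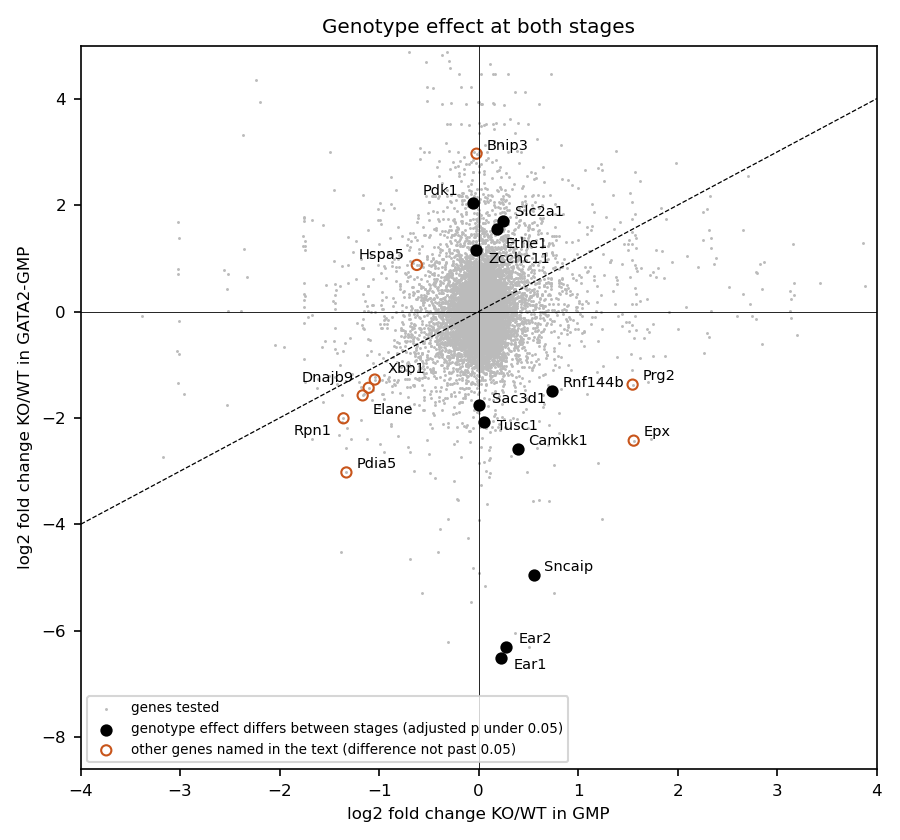
Log2 fold change KO/WT in GMP (horizontal axis) against that in GATA2-GMP (vertical axis) for genes tested in the 12-library fit, with 21 genes outside the axes not drawn. The dashed line marks equal effects. The 11 genes past the threshold (black) lie farther from 0 on the vertical axis than on the horizontal one, and Hspa5 lies to the upper left.

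Counts of genes called within a stage depended on which libraries shared an estimate of the spread. In the 12-library fit 17 genes were called for genotype in GMP (1 higher, 16 lower, or 0.133%, 0.00781% and 0.125% of genes) and 1461 in GATA2-GMP (596 higher, 865 lower, or 11.4%, 4.66% and 6.76%). Fitted on the 6 libraries of its own stage, GMP gave 381 (79 higher, 302 lower, or 3.17%, 0.658% and 2.52%) and GATA2-GMP gave 44 (12 higher, 32 lower, or 0.376%, 0.103% and 0.274%). With the replicate number as a block, a setting chosen after seeing the data, GMP alone gave 964 (396 higher, 568 lower, or 8.03%, 3.30% and 4.73%), among them all 302 of the lower and 78 of the 79 higher genes. The order of the stages thus turned with the fit, beside the unequal spread between replicates given above, and neither count shows at which stage more genes responded. Leaving out 1 library of the 12 gave 0 calls in GMP without any 1 GMP KO library, 5 to 8 without any 1 GMP WT library, 8 and 10 without GATA2-GMP KO 1 and KO 2, and 39 without GATA2-GMP WT 3. In GATA2-GMP it gave 691 without KO 1, 827 without WT 1, 962 without GMP KO 2 and 3596 without WT 3. With library totals alone the GATA2-GMP calls of the 12-library fit split into 1083 higher and 414 lower. Fold changes below are those of the 12-library fit. Adjusted p-values for a single stage are those of the fit to that stage's 6 libraries and are named as such.

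The eosinophil-associated ribonucleases Ear1 and Ear2, toxic granule RNases, had the most negative differences of the 11. Ear1 (chr14:44396430-44397304, mm9) stood at 369, 76 and 109.5 CPM in the WT libraries of GATA2-GMP, against 1.46, 2.3 and 2.33 CPM in KO. In GMP it stood at 0.94, 0.917 and 0.25 CPM in WT and 1.04, 0.667 and 0.896 CPM in KO. Only GATA2-GMP WT was high, and the KO libraries there were closer to GMP than to their own WT. The log2 fold change was -6.52 (SE 0.62) in GATA2-GMP and 0.23 (SE 0.71) in GMP, a difference of -6.74 (SE 0.92, edgeR adjusted p = 0.0277). Ear2 (chr14:44680319-44681199) stood at 130.3, 35.6 and 35.1 CPM in GATA2-GMP WT, against 0.992, 0.896 and 0.601 CPM in KO, and at 0.299, 0.359 and 0.15 CPM in GMP WT, against 0.464, 0.23 and 0.358 CPM in GMP KO. Its difference was -6.58 (SE 1.01, edgeR adjusted p = 0.0321). Ear genes are near-identical copies, and reads that align to several of them went to no gene, so the values of Ear1 and Ear2 are uncertain as to which copy they stand for.

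Of the other granule proteins, Epx (eosinophil peroxidase) was at 18226, 8413 and 33368 CPM in GATA2-GMP WT, against 3977, 4901 and 2282 CPM in KO, and at 42, 27.2 and 13 CPM in GMP WT, against 121, 58.3 and 62.6 CPM in GMP KO. KO lay below WT in all GATA2-GMP libraries and above WT in all GMP libraries, with log2 fold changes of -2.43 and 1.56. Neither was called in edgeR on its own stage (adjusted p = 0.0974 in GATA2-GMP and 0.337 in GMP, or 0.169 in GMP with the replicate block). The difference of -3.99 (SE 0.75, edgeR adjusted p = 0.0609, and 0.0106 without WT 3) did not pass the threshold. Prg2, the major basic protein, was at 178094, 121128 and 127583 CPM in GATA2-GMP WT, against 49528, 60218 and 54942 CPM in KO, and at 184, 102 and 31.4 CPM in GMP WT, against 462, 247 and 220.03 CPM in GMP KO. It had the same layout, with a difference of -2.92 (SE 0.702, edgeR adjusted p = 0.096, and 0.0243 without WT 3). Prg2 was called at neither stage in edgeR on that stage alone (adjusted p = 0.129 in GATA2-GMP and 0.461 in GMP, or 0.253 in GMP with the replicate block). Over the 7 tested members of the granule list the median difference was -2.92, against -0.01 over all genes, with 2 members called lower (background 0.0547%) and 6 lower at an unadjusted p under 0.05 (background 8.95%). Leaving out each library in turn gave a median between -3.59 and -2.49, and -2.99 without GATA2-GMP WT 3, where 5 members were called lower (background 4.70%). In these bulk samples fewer cells of a type and less RNA per cell cannot be told apart. Among markers of other cells that GATA2-GMP cultures could hold, the mast cell and neutrophil sums overlapped between the genotypes and that of MHC class II presentation, a mark of antigen-presenting cells, did not. Mast cell and basophil genes summed to 5673, 15554 and 6651 CPM in WT and 9559.6, 9259 and 15161 CPM in KO, and neutrophil later granule genes to 89054, 58103 and 60056 CPM in WT and 45424, 45620.0 and 75572 CPM in KO. Higher values in GMP KO were not particular to eosinophil granule genes. The neutrophil later granule list, with 24 tested members, had a median fold change of 1.38 in GMP and 0.41 in GATA2-GMP, and a median difference of -0.92. Only 16 of the 24 had enough counts to be tested in GMP alone. The list's sum overlapped between the genotypes in GMP, at 589, 556 and 539 CPM in WT and 659, 578 and 496 CPM in KO. In GMP alone with the replicate block, 12 of its 16 tested members were called higher and 2 lower (background 3.30% and 4.73%), or 1 and 1 without the block. The 10 MHC class II genes summed to 146, 197 and 159 CPM in WT, against 276, 243 and 365 CPM in KO, and to between 85.7 and 97.7 CPM in the 6 GMP libraries. The part of these cells in the result was not tested.

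The other 5 genes with a lower effect in GATA2-GMP belong to no common pathway list. Sncaip encodes synphilin-1, a protein that interacts with alpha-synuclein. It was at 21.9, 8.41 and 12.6 CPM in GATA2-GMP WT, against 0.525, 0.512 and 0.3 CPM in KO, and at 1.97, 1.04 and 1.05 CPM in GMP WT, against 2.07, 1.72 and 2.24 CPM in GMP KO. GATA2-GMP KO was the lowest of the 4 groups and GATA2-GMP WT the highest, with no overlap between any pair that includes either. The difference of -5.51 (SE 0.599, edgeR adjusted p = 0.00733) had the smallest p of all genes and passed in 22 of 24 alternatives, where the other 10 passed in 11 to 15.

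Camkk1, a kinase that activates calmodulin-dependent kinases, was at 24, 12.7 and 13.5 CPM in GATA2-GMP WT, against 2.68, 3.01 and 2.63 CPM in KO, and between 2.6 and 5.25 CPM in the 6 GMP libraries. The KO libraries of GATA2-GMP lay within the range of GMP. Its difference was -2.98 (SE 0.44, edgeR adjusted p = 0.0311). Rnf144b, a ubiquitin ligase, was at 14.4, 17 and 11.3 CPM in GMP WT, against 25.3, 24.9 and 21.1 CPM in GMP KO, and at 79.1, 40.9 and 60.3 CPM in GATA2-GMP WT, against 20.1, 22.3 and 21.3 CPM in KO. It was the 1 gene of the 11 with effects of opposite sign and libraries that overlapped at neither stage: 0.74 in GMP (adjusted p = 0.00625 in edgeR on GMP alone) and -1.498 in GATA2-GMP (adjusted p = 0.0648 in edgeR on GATA2-GMP alone). Its stage difference was -2.24 (SE 0.32, edgeR adjusted p = 0.0311).

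Tusc1 and Sac3d1 had like levels in GMP WT, GMP KO and GATA2-GMP WT and were low in GATA2-GMP KO only among the 4 groups. Tusc1, a candidate tumour suppressor, was at 1.75, 1.86 and 1.95 CPM in GATA2-GMP KO and between 6.06 and 10.1 CPM in the other 9 libraries. Sac3d1, a protein with a domain of the mRNA export factor SAC3, was at 4.9, 4.8 and 6.08 CPM in GATA2-GMP KO and between 13.5 and 23.3 CPM in the other 9. Their differences were -2.13 (SE 0.33, edgeR adjusted p = 0.0331) and -1.76 (SE 0.29, edgeR adjusted p = 0.0454).

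**Figure D2:**
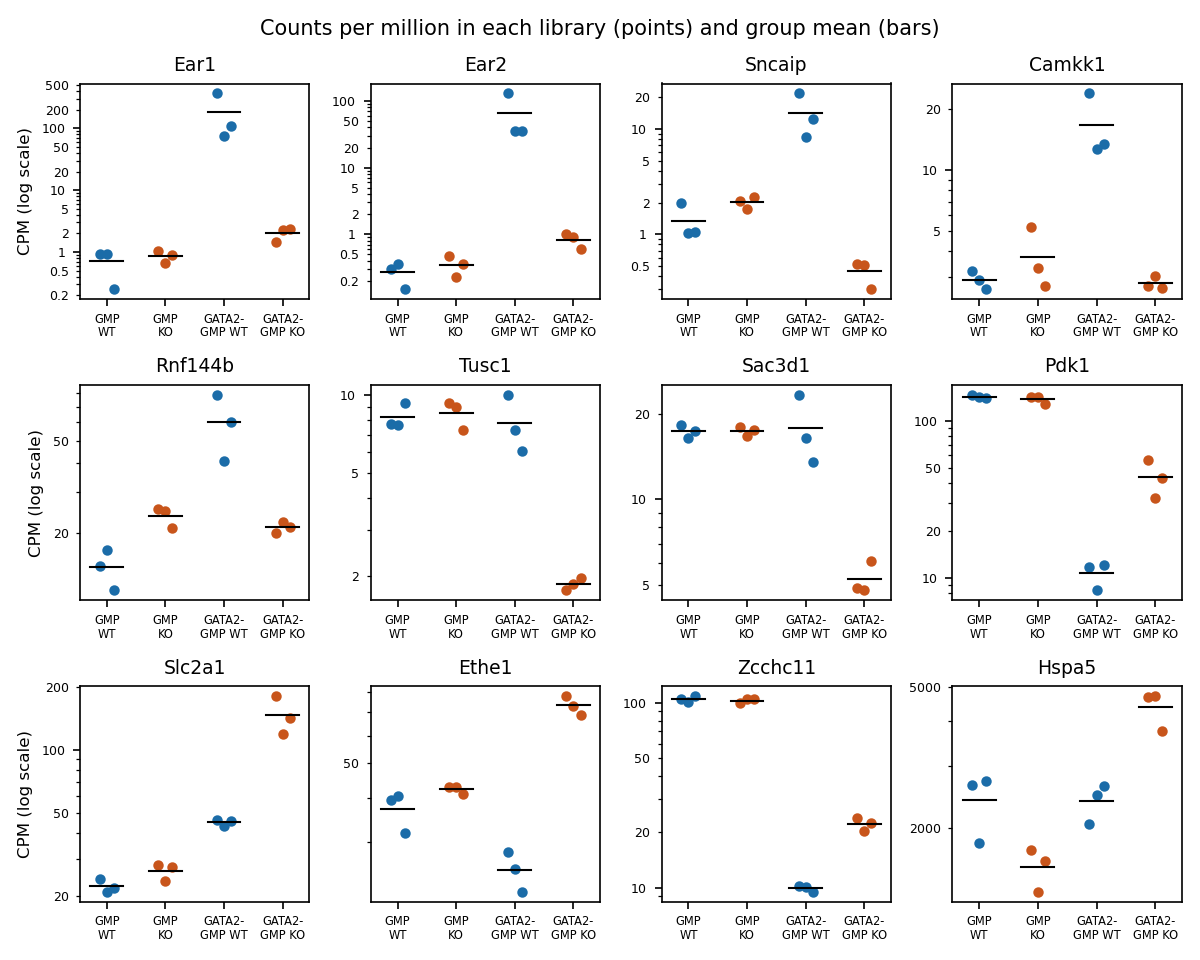
CPM of the 11 genes past the threshold and of Hspa5 in each library (points, log scale) with group means (bars), WT in blue and KO in orange. GATA2-GMP KO lies apart from GATA2-GMP WT in every panel, while GMP KO and GMP WT overlap in most.

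Of the 4 genes with a higher effect in GATA2-GMP, Pdk1 and Slc2a1 act on glucose use. Pdk1 (chr2:71711281-71741915), the kinase that blocks entry of pyruvate into the mitochondrial cycle, was at 11.7, 8.35 and 12.2 CPM in GATA2-GMP WT, against 56.5, 32.3 and 43.5 CPM in KO. In GMP it was at 146, 142 and 138 CPM in WT and 141, 140.04 and 128 CPM in KO. The gene was high in all GMP libraries, low in GATA2-GMP WT and between them in GATA2-GMP KO. The genotype effect was -0.06 (SE 0.19) in GMP and 2.04 (SE 0.204) in GATA2-GMP, a difference of 2.09 (SE 0.28, edgeR adjusted p = 0.0277). Slc2a1 (chr4:118781316-118809935), the glucose transporter GLUT1, had another order of levels: 24, 20.9 and 21.9 CPM in GMP WT, 28.2, 23.6 and 27.3 CPM in GMP KO, 45.9, 42.9 and 45.8 CPM in GATA2-GMP WT, with 181, 119 and 141 CPM in GATA2-GMP KO. Its difference was 1.47 (SE 0.23, edgeR adjusted p = 0.0321).

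Ethe1, a mitochondrial enzyme of sulfide oxidation, was at 28, 25.2 and 21.6 CPM in GATA2-GMP WT, against 77.7, 72.8 and 68.5 CPM in KO, and at 39.4, 40.4 and 31.7 CPM in GMP WT, against 42.9, 43 and 40.9 CPM in GMP KO. Its difference was 1.37 (SE 0.21, edgeR adjusted p = 0.0321). Zcchc11 (Tut4), which adds uridines to RNA ends, stood between 99.3 and 109 CPM in the 6 GMP libraries, at 10.2, 10 and 9.5 CPM in GATA2-GMP WT, with 23.7, 20.2 and 22.3 CPM in GATA2-GMP KO. Its difference was 1.18 (SE 0.17, edgeR adjusted p = 0.0311). Like Pdk1, it was low in GATA2-GMP WT against GMP and less low in GATA2-GMP KO.

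The glycolysis and hypoxia response list had more members with a higher effect in GATA2-GMP than any other list described here. Of 31 members, all tested, 2 were called higher (background 0.0312% of genes), 14 were higher and none lower at an unadjusted p under 0.05 (background 5.96% and 8.95%), and the median difference was 0.67. Members not past the threshold included Bnip3, a mitophagy receptor, at 51.5, 75.1 and 43 CPM in GATA2-GMP WT, against 389, 176 and 760.5 CPM in KO, with GMP between 4.15 and 5.95 CPM. Its difference was 2.99 (SE 0.58, edgeR adjusted p = 0.0622, and 0.0186 without WT 3). That of Ndrg1, a hypoxia-inducible gene, was 1.58 (SE 0.32, edgeR adjusted p = 0.0661, and 0.00739 without WT 3). The list's sum was 8768, 9118 and 11477 CPM in GATA2-GMP WT, against 16632, 15006 and 17634 CPM in KO, without overlap, and lay between 3972 and 4570 CPM in the 6 GMP libraries. Leaving out single libraries kept the median between 0.54 and 0.84, and 12 members were called higher without GATA2-GMP WT 3, where the background was 4.33%.

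**Figure D3:**
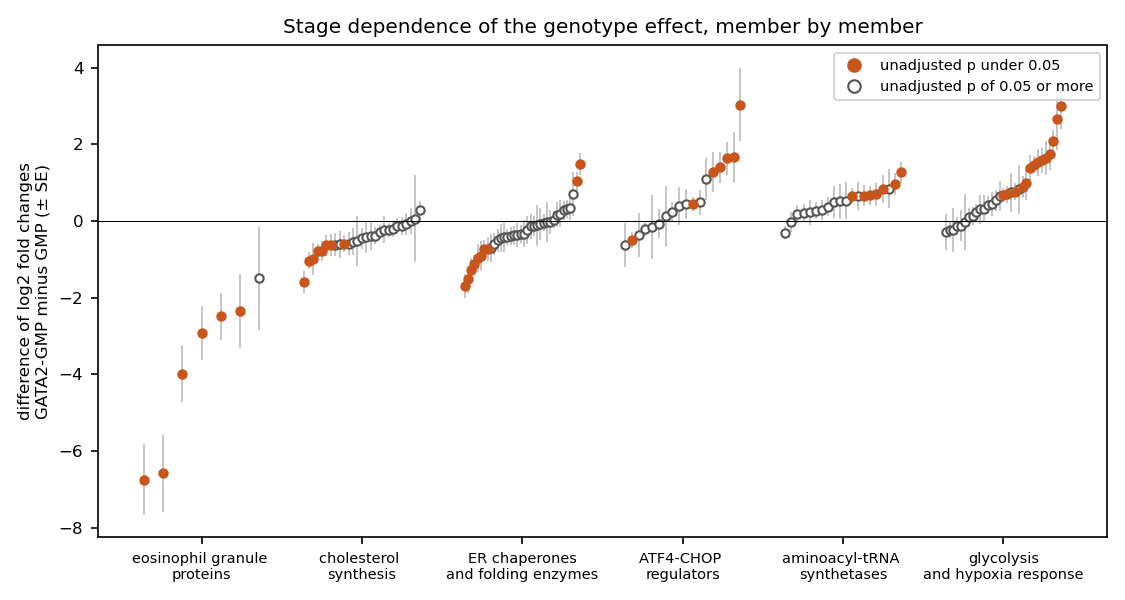
Difference of log2 fold changes, GATA2-GMP minus GMP, for each tested member of 6 gene lists, sorted within the list, with SE bars. Filled points have an unadjusted p under 0.05. Granule proteins and most cholesterol synthesis genes lie below 0, tRNA synthetases and glycolysis genes mostly above, and the 2 filled ER chaperone genes above 0 are Hspa5 and Ero1l.

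ER chaperones and folding enzymes mostly had lower values in KO at both stages. The median log2 fold change of the 36 tested members was -0.62 in GMP and -0.67 in GATA2-GMP, and the median of the differences was -0.34. In edgeR fits to single stages 22 of 36 were called lower in GMP (background 2.52%; with the replicate block 27, background 4.73%) and 7 of 36 in GATA2-GMP (background 0.274%), with none higher. None passed the threshold of the interaction (background 0.0859%). At an unadjusted p under 0.05, 8 were lower and 2 higher (background 8.95% and 5.96%). Without GATA2-GMP WT 3, 5 were called lower and 3 higher, where the background was 4.70% lower and 4.33% higher. The 2 higher at an unadjusted p under 0.05 were Hspa5 and Ero1l, an ER oxidase. Ero1l was named after its values were seen.

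Hspa5 encodes BiP, the main Hsp70 chaperone of the ER. It was at 2646, 1822 and 2723 CPM in GMP WT 1, 2 and 3 and at 1736, 1323 and 1616 CPM in GMP KO. In GATA2-GMP it was at 2056, 2475 and 2637 CPM in WT and at 4673, 4719.98 and 3761 CPM in KO. All KO libraries lay below WT in GMP and above WT in GATA2-GMP. The log2 fold changes were -0.62 (SE 0.201) and 0.88 (SE 0.202), neither called in edgeR on its own stage (adjusted p = 0.283 and 0.177). With the replicate block, edgeR on GMP alone did call Hspa5 (adjusted p = 5.39e-07). The difference of 1.497 (SE 0.29, edgeR adjusted p = 0.0609, and 0.00897 without WT 3) did not pass 0.05 and passed in 6 of 24 alternatives, with values between 1.39 and 1.66. Of all genes, 643 (5.02%) had no overlap of KO and WT at either stage: 256 were lower and 168 higher at both, 161 were higher in GMP and lower in GATA2-GMP, and 58, Hspa5 among them, the other way round.

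The members described next lay lower in KO at both stages, with the larger negative fold change in GATA2-GMP. Of the 36 tested members of the list, 27 had a negative difference between the stages and 9 a positive one. Pdia5, a disulfide isomerase, was at 28.6, 28 and 41.2 CPM in GMP WT, against 12.7, 12.5 and 13.8 CPM in GMP KO, and at 17.1, 10.9 and 12.3 CPM in GATA2-GMP WT, against 1.69, 1.79 and 1.43 CPM in KO. It fell at each stage in edgeR on that stage alone (adjusted p = 0.00292 in GMP and 0.00945 in GATA2-GMP). Its fold changes were -1.33 and -3.02, and the difference of -1.696 (SE 0.32, edgeR adjusted p = 0.0609, and 0.0101 without WT 3) did not pass. Dnajb11, a co-chaperone of BiP, was at 127, 125 and 127 CPM in GMP WT, 87, 70.3 and 74.2 CPM in GMP KO, 255, 186 and 174 CPM in GATA2-GMP WT, with 56.5, 57.4 and 59.6 CPM in GATA2-GMP KO, with a difference of -1.11 (SE 0.22, edgeR adjusted p = 0.0622, and 0.00588 without WT 3). Creld2, an ER stress-inducible protein, had a difference of -1.52 (SE 0.34, edgeR adjusted p = 0.0872, and 0.0116 without WT 3). Dnajb9, another co-chaperone and a well-known XBP1 target, was at 52, 31.9 and 59.7 CPM in GMP WT, against 21.6, 20.2 and 25.1 CPM in GMP KO, and at 46.7, 27.2 and 28.8 CPM in GATA2-GMP WT, against 11.6, 13.8 and 12.6 CPM in KO. KO lay below WT without overlap at each stage, and its stage difference was -0.33 (SE 0.35, edgeR adjusted p = 0.741).

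The lists for entry into and exit from the ER had smaller median differences than the chaperones. For 37 genes of translocation and N-glycosylation the median fold change was -0.40 in GMP and -0.54 in GATA2-GMP, and the median difference was -0.11, or 0.04 with library totals alone, where the median of all genes was 0.14. None was called, 6 were lower and 0 higher at an unadjusted p under 0.05 (background 8.95% and 5.96%). With 1 library left out the median lay between -0.32 and 0.01, and without WT 3 it was -0.29 with 5 called lower and 1 higher (background 4.70% and 4.33%). Ddost and Rpn1, both subunits of the oligosaccharyltransferase, had differences of -1.08 (SE 0.28, edgeR adjusted p = 0.106, and 0.0287 without WT 3) and -0.65 (SE 0.23, edgeR adjusted p = 0.198, and 0.0481 without WT 3). Rpn1 was at 413, 432 and 507 CPM in GMP WT, 172, 189 and 166 CPM in GMP KO, 389.7, 278 and 275 CPM in GATA2-GMP WT, with 77.3, 84 and 73.4 CPM in GATA2-GMP KO. For 40 genes of ER-Golgi vesicle transport the median difference was -0.14 with 4 lower and none higher, and for 27 genes of ER-associated degradation it was -0.14 with 4 lower and 3 higher, all at an unadjusted p under 0.05 and none called. Without WT 3, 3 vesicle genes were called lower and 0 higher, and 3 degradation genes lower and 1 higher. Aup1, which acts at the ER and lipid droplets, was one of the higher members, at 108, 109 and 105 CPM in GMP WT, 123, 113 and 110.4 CPM in GMP KO, 50.2, 61.1 and 51.3 CPM in GATA2-GMP WT, with 133, 108 and 129 CPM in GATA2-GMP KO (difference 1.08, SE 0.19, edgeR adjusted p = 0.0501, and 0.00879 without WT 3).

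In the 12-library fit 14 genes were called for genotype at both stages with the same sign, and those with the least evidence of a difference between the stages were Sva, Hspa13, Nucb2, Spcs3, Sec24d, Magt1, Tpp1 and P4hb. With each replicate block no gene was called for genotype in GMP in the 12-library fit, so none of the 14 was then called at both stages. Sec24d, a cargo adaptor of COPII vesicles, was at 31.3, 30.2 and 65.8 CPM in GMP WT, against 5.43, 4.21 and 4.48 CPM in GMP KO, and at 78.2, 41 and 45.3 CPM in GATA2-GMP WT, against 8.34, 11.2 and 5.11 CPM in KO. KO lay far below WT at both stages, with fold changes of -3.17 (SE 0.38) and -2.73 (SE 0.37) and a difference of 0.44 (SE 0.51), or -0.03 to 0.78 with 1 library left out. Nucb2, a calcium-binding protein of the secretory pathway, was at 29.3, 24.6 and 32.8 CPM in GMP WT, against 10.2, 9.03 and 8.87 CPM in GMP KO, and at 943, 658 and 612 CPM in GATA2-GMP WT, against 241, 261 and 312 CPM in KO. Its level was many times higher in GATA2-GMP, yet the fold changes were -1.62 and -1.44, a difference of 0.18 (SE 0.26), or 0.06 to 0.39 with 1 library left out.

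Hspa13, an Hsp70 relative in ER-derived vesicles, had a fold change of -0.86 (SE 0.15) in GMP and -0.86 (SE 0.15) in GATA2-GMP. Spcs3, a subunit of the signal peptidase, had -0.83 and -0.66, and P4hb, the protein disulfide isomerase PDI, -1.12 and -0.81. Magt1, an oligosaccharyltransferase subunit, had -0.76 and -0.93, and Tpp1, a lysosomal peptidase, -0.87 and -1.09. The SE of the difference was between 0.17 and 0.23 for these 5. Differences of several times their SE fell short of the threshold, as for Ada (-1.45, SE 0.24), while Sac3d1 passed (-1.76, SE 0.29). A change in effect of several times the SE would thus not have been called in these 5, and an equal effect is not shown. Sva, a seminal vesicle antigen gene, was at 0 counts in all 6 WT libraries, at 1.75, 1.63 and 1.52 CPM in GMP KO and at 2.45, 3.01 and 3.23 CPM in GATA2-GMP KO, so that no fold change can be given.

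Promoter sequence is shown for 4 genes that stand for the patterns above: Hspa5 with fold changes of opposite sign, Sec24d and Nucb2 with like ones, and Slc2a1 with a higher effect in GATA2-GMP. Each is the 250 bases before the RefSeq start site in build GRCm38.p6, written 5′ to 3′ on the gene's strand, with the letters CCACG, or CGTGG where it lies on the other strand, in capitals. CCACG is the core of binding motifs described for XBP1 and ATF6. The windows are chr2:34771840-34772089, plus strand for Hspa5, chr3:123267246-123267495, plus strand for Sec24d, chr7:116504119-116504368, plus strand for Nucb2 and chr4:119108495-119108744, plus strand for Slc2a1.
Hspa5: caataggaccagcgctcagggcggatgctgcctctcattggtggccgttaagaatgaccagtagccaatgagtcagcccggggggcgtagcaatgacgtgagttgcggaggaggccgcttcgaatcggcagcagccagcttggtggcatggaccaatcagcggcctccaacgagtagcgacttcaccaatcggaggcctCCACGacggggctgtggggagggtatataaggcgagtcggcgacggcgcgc
Sec24d: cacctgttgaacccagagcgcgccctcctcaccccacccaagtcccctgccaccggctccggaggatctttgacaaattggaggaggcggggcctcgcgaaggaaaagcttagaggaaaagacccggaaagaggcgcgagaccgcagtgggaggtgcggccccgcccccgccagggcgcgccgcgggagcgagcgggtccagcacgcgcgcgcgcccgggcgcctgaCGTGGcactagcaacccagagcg
Nucb2: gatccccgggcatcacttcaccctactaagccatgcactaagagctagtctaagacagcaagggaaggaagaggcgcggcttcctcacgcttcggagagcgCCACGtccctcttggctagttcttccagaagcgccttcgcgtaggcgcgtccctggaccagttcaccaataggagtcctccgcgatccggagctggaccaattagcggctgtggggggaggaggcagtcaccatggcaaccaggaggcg
Slc2a1: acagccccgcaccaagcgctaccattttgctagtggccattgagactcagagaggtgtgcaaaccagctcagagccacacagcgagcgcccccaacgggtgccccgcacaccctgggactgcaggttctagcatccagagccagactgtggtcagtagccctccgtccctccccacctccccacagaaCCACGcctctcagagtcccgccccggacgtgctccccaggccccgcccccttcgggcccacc
The ER stress element, here CCAAT followed by 9 free bases and CCACG, was found in Hspa5 and in no other of 28 genes matched to a promoter (of 32 looked for), and TGACGTGG in Sec24d alone. Over 32851 RefSeq windows of 300 bases (250 before to 50 after the start), searched on both strands, these were found in 0.119% and 0.676%. CCACG alone, which both longer motifs contain on one strand, was found in 32.8% of all windows. It was found in a window of 8 of the 10 matched genes past the interaction threshold and of 7 of the 12 matched genes just outside it. Of the 6 matched genes called at both stages, 3 had it. For Ear1 and Ear2 the match did not lie within the 250 bases before the start. All 4 promoters shown hold CCACG, which not all promoters looked at do. Each match is a description of letters in a window, and some genes have several windows.

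Genes called in GMP alone were then read at the other stage. Of 302 genes lower in GMP KO, 293 were also tested in GATA2-GMP, where 259 had a negative fold change and 34 a positive one. In edgeR on GATA2-GMP alone 19 were called lower and none higher (background 0.274% and 0.103%). Their median was -0.48 in GMP and -0.60 in GATA2-GMP, where all 10941 genes tested at both stages had a median of -0.02 with 5615 negative. The 2 stages share no library, and the GATA2-GMP median of the 302 in the 12-library fit was -0.58 and lay between -0.63 and -0.55 when each library was left out in turn, or at -0.39 with library totals alone. Of 79 genes higher in GMP KO, 71 were tested in GATA2-GMP, and 43 had a positive and 28 a negative fold change there, with 1 called higher (background 0.103%). Their median was 0.42 in GMP and 0.11 in GATA2-GMP. The GATA2-GMP median of the 79 in the 12-library fit was 0.15, between 0.10 and 0.31 with 1 library left out, and 0.34 with library totals alone. With the replicate block in the GMP fit, 542 of 568 lower genes were tested in GATA2-GMP, 435 of them negative with a median of -0.43, and 370 of 396 higher genes, 206 of them positive with a median of 0.09. Since members were chosen by their effect in GMP, their GMP medians are a description and carry no test. In the other direction, 30 of the 32 genes lower in GATA2-GMP KO were tested in GMP, where 26 were negative, with a median of -0.87. In edgeR on GMP alone 19 of them were called lower (background 2.52%). All 10941 genes tested at both stages had a median of 0.006 in GMP, with 5262 negative.

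**Figure D4:**
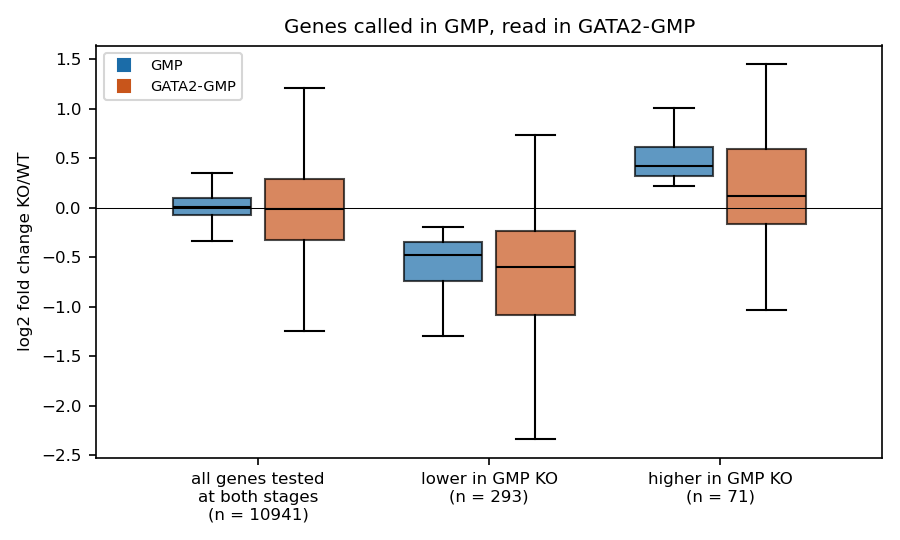
Log2 fold change KO/WT in GMP (blue) and GATA2-GMP (orange), each from the fit to its own 6 libraries, over all 10941 genes tested at both stages, the 293 called lower and the 71 called higher in GMP. Boxes span the quartiles with the median, whiskers reach 1.5 times the box, and points beyond are not drawn. The boxes of the 293 lie below 0 at both stages, and that of the 71 spans 0 in GATA2-GMP.

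ATF4-CHOP regulators had higher values in GATA2-GMP KO by their median. Over the 18 members the median fold change was 0.02 in GMP and 0.98 in GATA2-GMP. At an unadjusted p under 0.05, 6 members were higher and 1 lower (background 5.96% and 8.95%). None was called (2 higher without WT 3, where the background was 4.33%). Ddit3, which encodes CHOP, was at 53.2, 156 and 81.7 CPM in GATA2-GMP WT, against 273, 252 and 356 CPM in KO, with the 6 GMP libraries between 8.18 and 12.2 CPM. KO lay above WT without overlap in GATA2-GMP and overlapped in GMP, and the difference was 1.63 (SE 0.44, edgeR adjusted p = 0.121). Eif4ebp1, a brake on translation, had a difference of 1.396 (SE 0.401, edgeR adjusted p = 0.133, and 0.0431 without WT 3). Atf4 mRNA itself overlapped between the genotypes at both stages, with a difference of 0.24 (SE 0.25, edgeR adjusted p = 0.723). Ern1, a member of the separate list of stress sensors, encodes IRE1. It was at 2.79, 3.51 and 8.68 CPM in GATA2-GMP WT, against 11.4, 11.1 and 8.49 CPM in KO, where WT 3 lay within KO, and at 203, 199 and 188 CPM in GMP WT, against 247, 204 and 200.05 CPM in GMP KO. Its difference was 0.89 (SE 0.43, edgeR adjusted p = 0.356, and 0.0056 with a value of 1.56 without WT 3). Eif2ak3, which encodes PERK and is in the list of sensors too, went the other way. It was at 34, 26.2 and 31.6 CPM in GATA2-GMP WT, against 15.5, 13.4 and 12.8 CPM in KO. KO lay below WT without overlap at both stages, with fold changes of -0.44 in GMP and -1.14 in GATA2-GMP. The difference was -0.70 (SE 0.23, edgeR adjusted p = 0.17). The part of PERK in these values was not tested.

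Of 20 aminoacyl-tRNA synthetases, which load tRNAs with amino acids, 7 had a higher and 0 a lower effect in GATA2-GMP at an unadjusted p under 0.05 (background 5.96% and 8.95%). The median difference was 0.52 and none was called. Without GATA2-GMP WT 3 all counts of this list rest on 2 WT libraries, and 7 were then called higher, where the background was 4.33%. The median was then 0.73, the highest of a range from 0.31 with 1 library left out. Vars was at 8.05, 10.2 and 5.36 CPM in GATA2-GMP WT, against 25, 24.1 and 18.2 CPM in KO, and at 287, 285 and 299 CPM in GMP WT, against 363, 325 and 343 CPM in GMP KO, with a difference of 1.27 (SE 0.28, edgeR adjusted p = 0.0851, and 0.0153 without WT 3). Eprs had one of 0.96 (SE 0.29, edgeR adjusted p = 0.145, and 0.00588 without WT 3). Among 22 amino acid and one-carbon genes 3 were higher and 1 lower at an unadjusted p under 0.05 and the median was 0.40, with none called, or 3 higher without WT 3. Shmt2, the mitochondrial serine hydroxymethyltransferase, rose in GMP KO in edgeR on GMP alone (adjusted p = 0.0176), with fold changes of 0.27 in GMP and 1.32 in GATA2-GMP and a difference of 1.04 (SE 0.22, edgeR adjusted p = 0.0747, and 0.012 without WT 3).

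**Figure D5:**
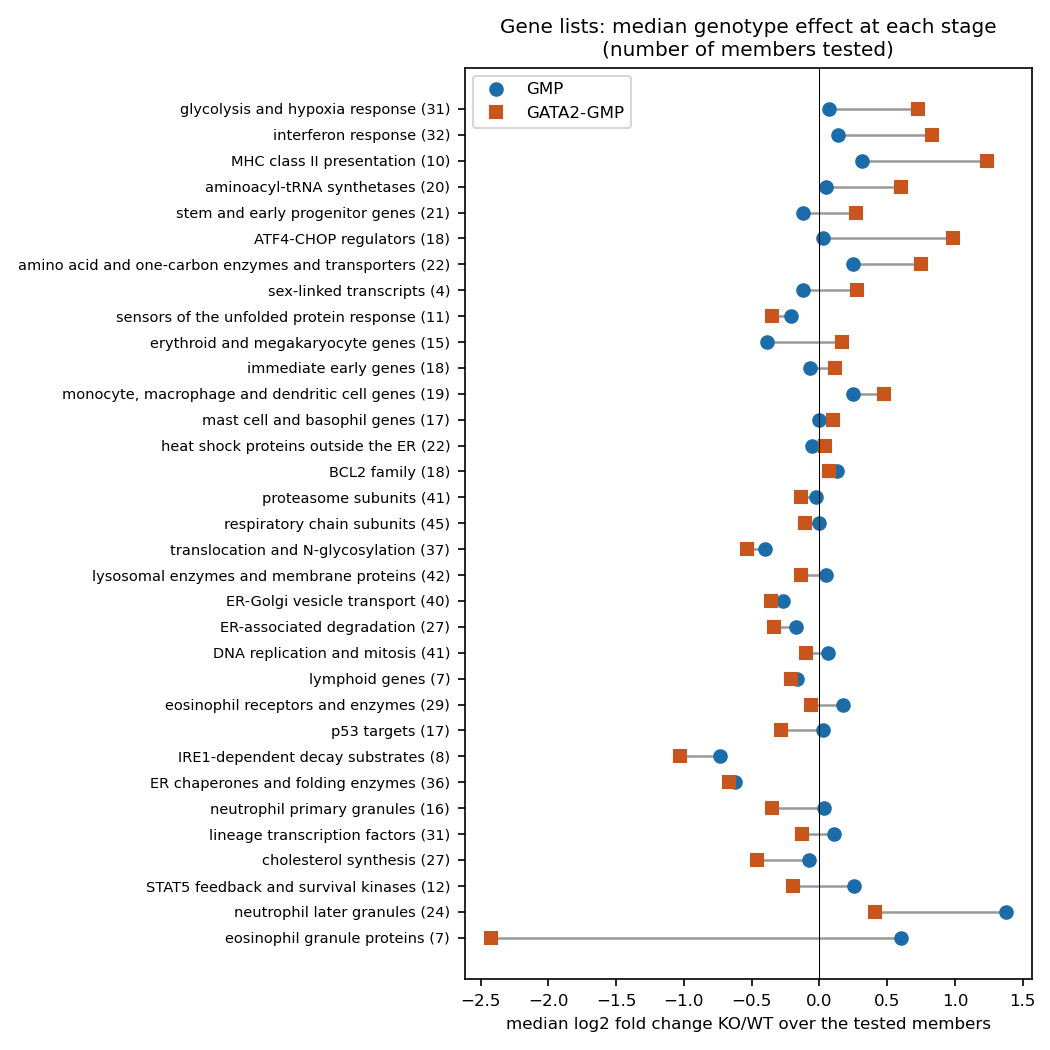
Median log2 fold change KO/WT in GMP (circles) and in GATA2-GMP (squares) for each of 33 gene lists, ordered by the median difference between the stages, with the number of members tested in brackets. Eosinophil granule proteins have the widest gap. The medians of ER chaperones lie close together at both stages, while 27 of the 36 members had a negative difference between the stages.

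Cholesterol synthesis genes had lower values in GATA2-GMP KO. Of 27 tested members 8 were lower and none higher at an unadjusted p under 0.05 (background 8.95% and 5.96%). None was called (5 lower without WT 3, where the background was 4.70%), and the median fold change was -0.08 in GMP and -0.46 in GATA2-GMP. Scap, the escort of SREBP, had a difference of -1.04 (SE 0.22, edgeR adjusted p = 0.0747, and 0.0056 without WT 3) and Cyp51, a demethylase of the pathway, -0.78 (SE 0.19, edgeR adjusted p = 0.096, and 0.0241 without WT 3). The list summed to 3903, 3842 and 4318 CPM in GATA2-GMP WT, against 2608, 2726 and 2849 CPM in KO, without overlap.

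Of 42 lysosomal genes 9 were lower and 1 higher at an unadjusted p under 0.05 (background 8.95% and 5.96%). The median difference was -0.13, or 0.03 with library totals alone, where that of all genes was 0.14. Without WT 3 it was -0.02, with 7 called lower and 1 higher (background 4.70% and 4.33%). Arsb, the lysosomal arylsulfatase B, was at 1467, 796 and 811 CPM in GATA2-GMP WT, against 239, 278 and 177 CPM in KO, and at 283, 228 and 249 CPM in GMP WT, against 271, 211 and 202 CPM in GMP KO. It fell in GATA2-GMP in edgeR on that stage alone (adjusted p = 0.0404) and overlapped between the genotypes in GMP, and the difference of -1.996 (SE 0.35, edgeR adjusted p = 0.0547, and 0.00569 without WT 3) fell short of the threshold. Lamp1, a lysosomal membrane glycoprotein, was lower in KO at both stages, with fold changes of -1.34 and -2.57 and a difference of -1.24 (SE 0.27, edgeR adjusted p = 0.077, and 0.0135 without WT 3).

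Lineage transcription factors had a smaller median difference than the granule genes. Of 31 tested, 8 were lower and 1 higher at an unadjusted p under 0.05 (background 8.95% and 5.96%). None was called (2 lower without WT 3, where the background was 4.70%), and the median difference was -0.44. Gata2 was at 282, 370.1 and 223 CPM in GATA2-GMP WT, against 273, 235 and 293 CPM in KO, which overlap, and at 24, 22.5 and 39.7 CPM in GMP WT, against 24.8, 28.3 and 29.1 CPM in GMP KO (difference -0.06, SE 0.32). Its counts cannot separate the transduced from the cell's own gene. Gata1, needed for eosinophil development, was at 145, 121 and 210.1 CPM in GATA2-GMP WT, against 111, 139.7 and 102 CPM in KO, which overlap too, with a difference of -0.66 (SE 0.43, edgeR adjusted p = 0.531), or -1.08 to -0.39 with 1 library left out. Cebpe, a factor for granulocyte maturation, was at 347, 234 and 112 CPM in WT and 126, 106 and 199 CPM in KO, with WT 3 among the KO values and KO 3 the highest of KO, and a difference of -0.81 (SE 0.49, edgeR adjusted p = 0.487), or -1.15 to -0.41 with 1 library left out. Runx1 had -0.68 (SE 0.17) and Myc 0.67 (SE 0.199), with edgeR adjusted p = 0.105 and 0.144, or 0.0199 and 0.0619 without WT 3.

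Receptors and feedback genes of eosinophil cytokines gave mixed values. Among 29 eosinophil receptors and enzymes 7 were lower and 3 higher at an unadjusted p under 0.05 (background 8.95% and 5.96%). Without WT 3, 4 were called lower and 2 higher (background 4.70% and 4.33%). The sum of this list overlapped between the genotypes in GATA2-GMP, as given above. Il5ra, the receptor chain for interleukin-5, was at 1.58, 0.758 and 0.7 CPM in GMP WT, against 3.36, 1.7 and 2.24 CPM in GMP KO, and at 52.2, 41.7 and 99 CPM in GATA2-GMP WT, against 26.8, 37 and 31.3 CPM in KO. KO lay above WT in GMP and below it in GATA2-GMP, without overlap, and the difference was -2.27 (SE 0.54, edgeR adjusted p = 0.096, and 0.0266 without WT 3). Of 12 STAT5 feedback genes and survival kinases 4 were lower and none higher, with a median of -0.59. That median was -0.31 without WT 3, with 1 called lower, and between -0.63 and -0.31 with any 1 library left out. Socs1, an inhibitor of cytokine signalling, had a difference of -1.84 (SE 0.43, edgeR adjusted p = 0.0898, and 0.0175 without WT 3).

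Neutrophil and progenitor genes were read as markers of the starting cells. Mpo, the neutrophil peroxidase, was at 18198, 16854 and 19372 CPM in GMP WT, 18837, 16230.5 and 16156 CPM in GMP KO, 1888, 2177 and 2701 CPM in GATA2-GMP WT, with 1578, 1969 and 1364 CPM in GATA2-GMP KO, with a difference of -0.37 (SE 0.29, edgeR adjusted p = 0.621). Elane, neutrophil elastase, was at 3228, 3178 and 3567 CPM in GMP WT, against 1618, 1503 and 1326 CPM in GMP KO, where it fell in edgeR on GMP alone (adjusted p = 1.01e-05). In GATA2-GMP it was at 675, 699 and 208 CPM in WT and 170.2, 138 and 222 CPM in KO, where WT 3 and KO 3 overlap, and the difference was -0.41 (SE 0.49, edgeR adjusted p = 0.773), or -0.79 with 0.0615 without WT 3. Of 21 stem and early progenitor genes 5 were higher and none lower at an unadjusted p under 0.05 (background 5.96% and 8.95%). The median difference was 0.44, or 0.21 to 0.898 with 1 library left out. The highest value was that without WT 3, where 4 were called higher (background 4.33%). Satb1, a chromatin organiser, had 0.801 (SE 0.21, edgeR adjusted p = 0.116, and 0.0209 without WT 3). Kit, the stem cell factor receptor, was listed with the mast cell and basophil genes, of which 1 of 17 was higher, near the background of 5.96%, and none lower. It was at 31.3, 28.6 and 100.3 CPM in GATA2-GMP WT, with WT 3 the highest, and at 199.98, 195 and 113 CPM in KO, with a difference of 1.62 (SE 0.55, edgeR adjusted p = 0.189, and 0.00292 with a value of 2.45 without WT 3).

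Interferon response genes had a median difference of 0.67, with 6 of 32 higher and none lower at an unadjusted p under 0.05 (background 5.96% and 8.95%). With 1 library left out it lay between 0.39 and 1.01, the highest without WT 3, where 5 were called higher (background 4.33%). Ifit1, an interferon-induced RNA-binding protein, was at 0.309, 0.126 and 0.874 CPM in GATA2-GMP WT, against 1.4, 1.79 and 2.93 CPM in KO, and between 0.7 and 1.92 CPM in GMP (difference 2.697, SE 0.81, edgeR adjusted p = 0.147, and 0.0184 without WT 3). Usp18, which removes the ubiquitin-like ISG15, was at 5.88, 5.08 and 11 CPM in GATA2-GMP WT, against 14.4, 12.9 and 33.9 CPM in KO, with KO 3 the highest (difference 1.86, SE 0.599, edgeR adjusted p = 0.17, and 0.0296 without WT 3). Among 41 genes of DNA replication and mitosis 6 were lower (background 8.95%) and 2 higher, a share below the background of 5.96%. Among 17 p53 targets 3 were lower and none higher. Among 18 BCL2 family genes 1 was lower, a share below the background of 8.95%. That one was Bak1, a pro-apoptotic pore former, at 10.2, 13.7 and 14.9 CPM in GATA2-GMP WT, against 4.14, 4.22 and 7.21 CPM in KO, and at 125, 127 and 115 CPM in GMP WT, against 149, 139.8 and 125 CPM in GMP KO (difference -1.51, SE 0.29, edgeR adjusted p = 0.0622, and 0.0135 without WT 3). Respiratory chain and proteasome genes, whose sums set WT 3 and KO 3 apart, had median differences of -0.09 and -0.06, or -0.32 and -0.25 without GATA2-GMP WT 3.

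Just outside the threshold lay genes with adjusted p-values from 0.0501 to 0.0609, none of which passes. Without WT 3 the 10 named here passed, at adjusted p-values from 0.00575 (Ada) to 0.0103 (Rhobtb3). On the lower side were Ada (adenosine deaminase, -1.45), Map2k3 (a kinase upstream of p38, -1.06), Fam101b (-1.57) and Mboat7 (a phospholipid acyltransferase, -1.35). Ada was at 289, 202 and 214 CPM in GATA2-GMP WT, against 77, 105 and 99.9 CPM in KO, and between 16.9 and 22.2 CPM in GMP. On the higher side were Selenbp1 (2.67), Pyurf (1.62), Scin (an actin-severing protein, 2.65), Zscan26 (1.03), Rhobtb3 (1.56) and D330045A20Rik (1.88). Selenbp1, which oxidises methanethiol, was at 11.2, 13.1 and 16 CPM in GATA2-GMP WT, against 99.9, 42.4 and 141 CPM in KO, and between 14 and 17 CPM in GMP. Scin was at 20.3, 21.5 and 26.2 CPM in GATA2-GMP WT, against 51.1, 53.6 and 93.1 CPM in KO, and at 3.2, 2.59 and 6.9 CPM in GMP WT, against 1.86, 1.93 and 2.06 CPM in GMP KO, so that KO lay below WT in GMP and above WT in GATA2-GMP. Rhobtb3 and D330045A20Rik shared that layout, and both fell in GMP KO in edgeR on GMP alone (adjusted p = 0.0211 and 0.0151).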

How the data were processed

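Polyadenylated RNA of 12 libraries (4 groups of 3) was analysed. The deposited values are counts, not normalized, since they are whole numbers whose totals differ, in a file for each library. Per the submitters' processing notes the build was mm9, and STAR 2.3.0, SAMtools 0.1.14, HTSeq and DESeq were used, with no role given; strand setting and annotation are not given in the sources used here. Besides 23366 genes, each file lists 5 tallies of reads given to no gene (55.8 to 66.5% of records), which were set aside. Gene names that a spreadsheet had turned into dates (27) were restored where only 1 name fitted (23), and 4 were left out. In R 4.3.3, edgeR 4.0.16 was run on all 12 libraries: filterByExpr on the 4 groups (minimum count 10), TMM scaling, estimateDisp, glmQLFit with robust estimation and glmQLFTest, with Benjamini-Hochberg adjustment over 12803 genes and a threshold of 0.05. SE is the fold change over the square root of its F statistic. Fits to the 6 libraries of 1 stage, DESeq2 1.42.0, limma 3.58.1 voom with group weights and leave-one-out fits were alternatives. The code was tested on simulated data. All pairs of libraries had unequal counts, in at least 14460 genes.

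Replicate numbers come from the sample titles. Same-numbered deviations from the group means correlated across genes at 0.264, 0.193 and 0.127 in GMP, all over 0.1, so the numbers were taken to pair GMP libraries; in GATA2-GMP they gave -0.129, -0.233 and -0.41, and no pairing was assumed.

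Genes named were a fixed set of 13, the 11 past the threshold filled up to 12 in each direction by smallest p, up to 5 per pattern of calls and up to 4 for each of 33 lists by smallest p, and up to 8 genes called at both stages; Ero1l was added after its values were seen, and not all are described; a result of the cholesterol synthesis list is not reported here. The genes and lists were chosen with earlier results of these data known. Gene positions are from GENCODE vM1 (mm9), promoters from RefSeq (GRCm38.p6).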

Additional observations from a re-analysis of the deposited data

Results flagged for a closer look

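In 11 genes the genotype effect differed between GMP and GATA2-GMP by the test of the difference itself (edgeR quasi-likelihood, adjusted p under 0.05). On the log2 scale, GATA2-GMP minus GMP, the difference was -6.74 for Ear1, -6.58 for Ear2, -5.51 for Sncaip, -2.98 for Camkk1, -2.24 for Rnf144b, -2.13 for Tusc1 and -1.76 for Sac3d1. It was 2.09 for Pdk1, 1.47 for Slc2a1, 1.37 for Ethe1 and 1.18 for Zcchc11. Groups of 3 libraries are too small for a test of single outlying libraries.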

How the results depend on the processing

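The 11 genes past the threshold kept their direction in all 24 alternatives, and each passed in 11 to 22 of them. The number of genes past the threshold of the difference between the stages was 11, and 17 with DESeq2 size factors, 40 without a filter on low counts, 18 with 10 counts in 6 libraries, 18 without robust estimation, 794 by DESeq2 and 4187 without GATA2-GMP WT 3 and KO 3. With a replicate block it was 1 (block in GMP only), 0 (block within each stage, with 1336 genes at an unadjusted p under 0.05) and 8 (1 block over the stages). Leaving out 1 library gave 0 to 1179. For genotype in GMP the count was 17, 0 with each replicate block (246 to 299 genes at an unadjusted p under 0.05), 140 without WT 3 and KO 3, 88 by DESeq2, 349 by limma-voom, 381 in GMP alone and 964 in GMP alone with a replicate block, and 0 to 39 with 1 library left out. For genotype in GATA2-GMP it was 1461, and 162 (within each stage), 627 (GMP only) and 907 (over the stages) with a replicate block, 5883 without WT 3 and KO 3, 2520 by DESeq2, 190 by limma-voom and 44 in GATA2-GMP alone, and 691 to 3596 with 1 library left out. The settings without robust estimation, without WT 3 and KO 3, and of GMP alone with a block were chosen after seeing the data, and the cause of these shifts was not tested.

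Differences near 0 changed sign. Xbp1 had 0.02 without GMP KO 1 and 0.0292 without GATA2-GMP WT 1, its range over libraries left out being -0.44 to 0.0292. Without GATA2-GMP WT 3 and KO 3, Atf4 had -0.11, Nucb2 -0.10 and Spcs3 -0.0329, and Sec24d had -0.0254 without GMP WT 3, in a range of -0.0254 to 0.78. Gata2 had 0.10 with library totals alone and -0.37 to 0.15 with 1 library left out. Hspa13 had -0.0265 with DESeq2 size factors, -0.0241 without a filter, -0.000725 without the 10 largest genes, -0.0126 (within each stage), -0.0146 (GMP only) and -0.000811 (over the stages) with a replicate block, -0.0268 by DESeq2, -0.0161 by limma-voom and -0.164 to 0.0776 with 1 library left out. Depth limits genes of a few counts, such as Ear2 in GMP.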
